A study of Mus musculus with 6 samples.

Results

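The S100 calcium-binding proteins described here are 10 mouse genes, S100a3, S100a4, S100a6, S100a7a, S100a8, S100a9, S100a10, S100a11, S100a14 and S100a16, out of 25112 named genes in the authors' deposited table. They were chosen by name, and each is given by its RefSeq transcript with the highest base mean, the authors' mean normalized count over the libraries compared. RNA was sequenced from primary mouse epidermal keratinocytes of wild type C57BL/6 pups, taken at postnatal day 1 to 3 and grown from skin in medium with 0.05 mM calcium. One group received pro-miR-148a at 200 nM (3 libraries), which raises the microRNA miR-148a, and the other received miR-Control at 200 nM (3 libraries), and both were collected 48 h after transfection. The labels do not say whether the 3 libraries of a group came from separate cultures, animals or pools, so the p-values may measure technical spread alone.

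S100 proteins are small proteins with paired EF-hand loops that bind calcium. They mostly work as dimers, change shape when calcium binds and then grip a partner protein such as an annexin or a myosin heavy chain. In the epidermis, S100a8 and S100a9 are known as alarmins, which injured or inflamed keratinocytes release and which together form the metal-binding antimicrobial complex calprotectin. Other members serve inside the cell, in membrane repair, cytoskeleton and growth control, and most of the genes lie in a cluster beside the epidermal differentiation complex.

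The sequence of miR-148a-3p and the stretches of S100 3' untranslated region (UTR) that match it are shown because the direction of every fold change below is read from such sites. The mature sequence (RefSeq, GRCm38.p6, chr6:51269829-51269850, minus strand) has its seed, bases 2 to 8, in capitals. The sites are from GENCODE M21 transcripts on the plus strand of chromosome 3 (GRCm38), written with up to 8 bases of flank on each side and with the matching letters in capitals. That of S100a11, at chr3:93526205-93526212, is an 8mer, which pairs with the whole seed and has an A after it. Those of S100a10 (chr3:93564415-93564420) and S100a14 (chr3:90528268-90528273) are 6mers.
mmu-miR-148a-3p: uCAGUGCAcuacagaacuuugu
S100a11: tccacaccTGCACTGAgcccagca
S100a10: caactggaGCACTGgtaccccc
S100a14: ttttagagGCACTGgaaataaa

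All 3 sites lie in the UTR, at base 58 of 140 in S100a11, base 11 of 239 in S100a10 and base 53 of 622 in S100a14, counted from 1 after the stop codon. In the longest annotated UTR of the other 7 members no 8mer, 7mer or 6mer was found; they include the short UTRs of S100a8 (68 bases), S100a6 (92 bases) and S100a4 (141 bases).

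The numerator of the fold changes is not stated in the authors' deposited table. Once its values are turned to read pro-miR-148a over miR-Control, genes with a 7mer-m8 or 8mer site (1453 genes) had a median log2 fold change of -0.07, and the difference from the median of the genes without one was -0.078. MicroRNAs lower the transcripts they pair with, so this reading is used throughout, and every direction below would turn with it. The median UTR had 2373 bases in the genes with a 7mer-m8 or 8mer site and 730 in the genes with no site. The genes without a 7mer-m8 or 8mer site also include those with a 6mer (median 1834.5 bases) or a 7mer-A1 (2230 bases). These differences in length were not accounted for. No value per library was used here: the table gives 1 fold change and 1 standard error (SE) per transcript, and the depth of each library is unknown.

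**Figure D1:**
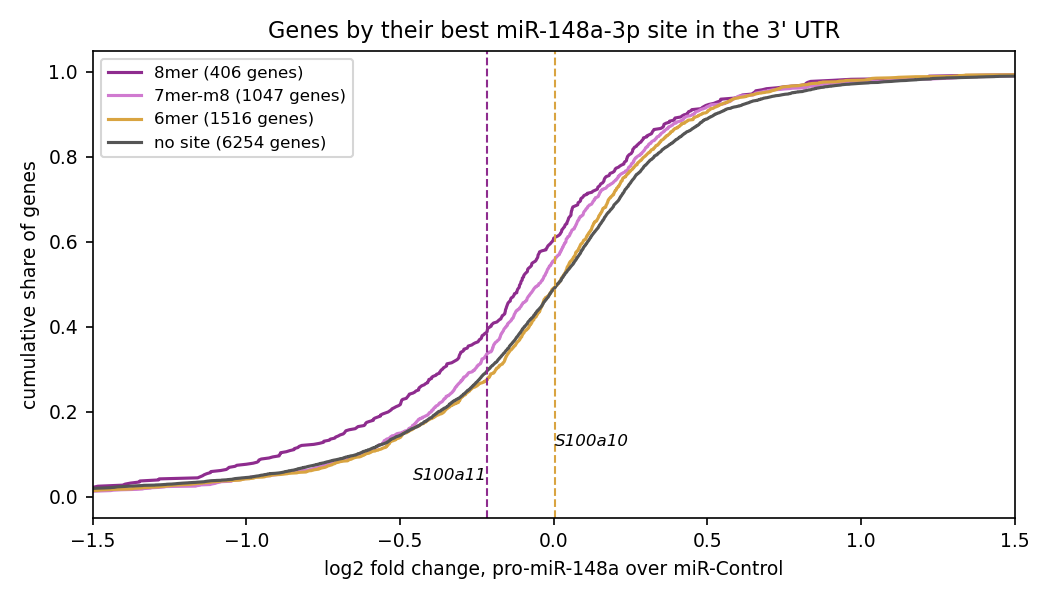
Cumulative share of genes (vertical axis) by log2 fold change of pro-miR-148a over miR-Control (horizontal axis), for genes sorted by the best miR-148a-3p site in the longest 3' UTR: 8mer (406 genes), 7mer-m8 (1047), 6mer (1516) and no site (6254); 7mer-A1 genes are not drawn. Dashed lines mark S100a11 at -0.22 among genes with an 8mer and S100a10 at 0.00 among genes with a 6mer; the 8mer curve lies to the left of the others.

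The S100 genes went both ways with miR-148a. S100a8 fell 6.24-fold and S100a11 fell 1.16-fold, while S100a4 rose 1.50-fold and S100a6 rose 1.47-fold, in the authors' deposited table. Of the 10 members, 8 had an adjusted p: 2 were higher, 2 were lower and 4 did not pass an adjusted p of 0.05. Over all 11038 genes tested, 33.5% passed, with 16.7% higher and 16.8% lower, and 2 of 8 members in each direction is close to those shares. The median log2 fold change of the 8 members was 0.13, against -0.01 over all genes tested. At base means of 100 or more it was 0.11 for 6 members, against 0.03 for 6423 genes.

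**Figure D2:**
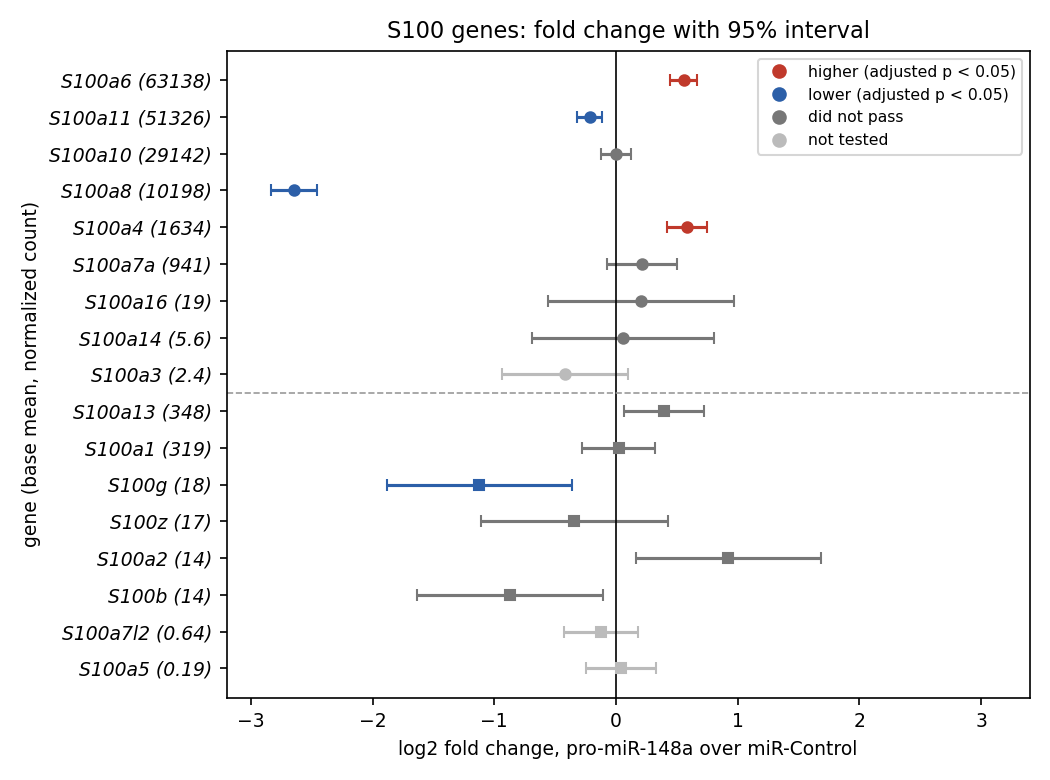
Log2 fold change of pro-miR-148a over miR-Control (horizontal axis) with its 95% interval from the authors' SE, for 9 members (circles, above the dashed line) and 8 other S100 genes (squares), each with its base mean in brackets; S100a9 was listed at 0 and has no value. S100a8, at -2.64, is far to the left of the other members with narrow intervals, and the members with base means under 20 have wide intervals across 0.

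S100a8, the alarmin subunit of calprotectin, was the member with the largest change. The authors' deposited table gave its transcript NM_013650 a base mean of 10198 and a log2 fold change of -2.64 ± 0.10 SE (adjusted p = 3.5e-161). The 95% interval runs from a 5.48-fold to a 7.12-fold fall. The group means implied by the base mean and the fold change are about 2815 normalized counts with pro-miR-148a and 17580 with miR-Control. Among the 6423 genes tested at base means of 100 or more, the log2 fold change of S100a8 was the 12th lowest. At least a 2-fold fall that passed the test was found in 4.48% of all genes tested.

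S100a9 encodes the partner of S100a8 in calprotectin, but no comparison could be made for it. The authors' deposited table lists its transcripts, NM_001281852 and NM_009114, at 0. This need not mean absence, and whether it does was not tested. In the table, 73.9% of the transcripts of genes with 2 or more listed transcripts were at 0, against 34.5% for genes with 1. These shares count transcripts, not genes. The members split the same way. The 6 members with 1 transcript had base means between 941 and 63138, and the 4 with 2 or more (S100a3, S100a9, S100a14 and S100a16) reached at most 18.9. Of the 16 transcripts of those 4 genes 8 were listed at 0.

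Because neutrophils and other myeloid cells also make S100a8, their markers were read as well. Of 8 neutrophil markers 4 were listed at 0 (Csf3r, Elane, Itgam and Ly6g), and the authors' deposited table gave the granule genes Mpo, Ngp and Camp base means of 0.557, 0.766 and 1.44. Csf3r, Itgam and Ly6g have 2 or more listed transcripts, so, as for S100a9, their 0 need not mean absence. Elane has 1. The only one tested was the chemokine receptor gene Cxcr2, which in the authors' deposited table fell 3.53-fold (base mean 160, adjusted p = 3.81e-15). Of 8 macrophage and other myeloid markers Ptprc, Adgre1 and Cd74, which also have 2 or more listed transcripts, were listed at 0. Of the 5 tested 3 fell and 1 rose, against 16.8% lower and 16.7% higher over all genes tested. The authors' deposited table has Cd68, the myeloid marker with the highest base mean (416), at a log2 fold change of -0.16, which did not pass (adjusted p = 0.463). In the authors' deposited table Lyz2, the lysozyme gene, fell 6.18-fold and the complement genes C1qa and C1qb 6.59-fold and 2.10-fold, at base means of 43.8, 19.4 and 10.6, while the receptor gene Csf1r rose 1.70-fold at a base mean of 188. The implied sum of the neutrophil list was 73.6 normalized counts with pro-miR-148a and 253 with miR-Control, nearly all of it Cxcr2. That of the myeloid list was 654 with pro-miR-148a and 702 with miR-Control. Fewer cells of a type and less RNA per cell cannot be told apart in bulk libraries, and the part of myeloid cells in the fall of S100a8 was not tested.

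S100a7a, the mouse relative of the human antimicrobial protein psoriasin, did not pass the test. The authors' deposited table gave its transcript NM_199422 a log2 fold change of 0.21 ± 0.15 SE at a base mean of 941 (adjusted p = 0.290). The 95% interval, -0.07 to 0.50, contains 0 and leaves out a fall like that of S100a8, its neighbour on the chromosome.

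S100a6, also called calcyclin and known for its high level in proliferating cells, had the highest base mean of the family. In the authors' deposited table its transcript NM_011313, with a base mean of 63138, had a log2 fold change of 0.56 ± 0.06 SE (adjusted p = 8.15e-21). The 95% interval of the rise is 1.36-fold to 1.59-fold. The implied means were 75154 normalized counts with pro-miR-148a and 51123 with miR-Control.

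S100a4, a regulator of nonmuscle myosin that is also used as a marker of fibroblasts, rose by a similar factor at a lower level. In the authors' deposited table NM_011311, its transcript, had a base mean of 1634 and a log2 fold change of 0.58 ± 0.08 SE (adjusted p = 3.79e-11). The interval, 1.34-fold to 1.68-fold, overlaps that of S100a6. The implied means were 1960 normalized counts with pro-miR-148a and 1308 with miR-Control. Of 8 fibroblast markers 5 fell, 0 rose and the other 3 missed the threshold, against 16.8% lower and 16.7% higher over all genes tested, and their median log2 fold change was -0.36. The implied sum of the list was 21261 normalized counts with pro-miR-148a and 28857 with miR-Control. Col3a1, Col1a2 and Col1a1, which encode dermal collagens, fell 1.44-fold, 1.35-fold and 1.34-fold and Thy1 fell 1.81-fold, per the authors' deposited table. The part of fibroblasts in the level of S100a4 was not tested.

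S100a11, which binds annexin A1 and is a known protein of the cornified envelope, was the member with the 8mer site printed above, and its change was small. The entry for NM_016740 in the authors' deposited table had a base mean of 51327 and a log2 fold change of -0.22 ± 0.05 SE (adjusted p = 0.000317). The 95% interval of the fall is 1.08-fold to 1.25-fold. The implied means were 47486 normalized counts with pro-miR-148a and 55167 with miR-Control. Among the 406 genes tested whose best site is an 8mer, the median log2 fold change was -0.11, and 29.3% passed as lower and 11.6% as higher. Of 6254 genes with no site 16.1% passed as lower and 19.0% as higher. Both groups were among the genes from which the direction was read, so this difference is no separate evidence on S100a11. A fall in a gene with a site does not show that the site caused it.

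S100a10, also called p11, which has lost calcium binding and holds annexin A2 at the cell membrane, had nearly equal levels. The authors' deposited table put its transcript NM_009112 at a log2 fold change of 0.0031 ± 0.06 SE and a base mean of 29142 (adjusted p = 0.979). The 95% interval of the ratio runs from 0.921 to 1.09. Its 6mer stands beside a median of 0.01 (log2) in the 1516 genes tested whose best site is a 6mer.

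The remaining members were counted too weakly to be compared with any precision. S100a16 had 7 transcripts in the authors' deposited table, 4 of them at 0, and its strongest (NM_001356607, base mean 18.9) had a log2 fold change of 0.21 ± 0.39 SE. For S100a14, an epithelial member, the authors' deposited table has a base mean of 5.56 and a log2 fold change of 0.06 ± 0.38 SE (adjusted p = 0.934). For S100a3, known from the hair cuticle, the authors' deposited table has a base mean of 2.42 and a log2 fold change of -0.42 ± 0.27 SE, but no adjusted p. The SE of the table never exceeded 0.39, also at the lowest base means, so fold changes of such transcripts are pulled toward 0.

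**Figure D3:**
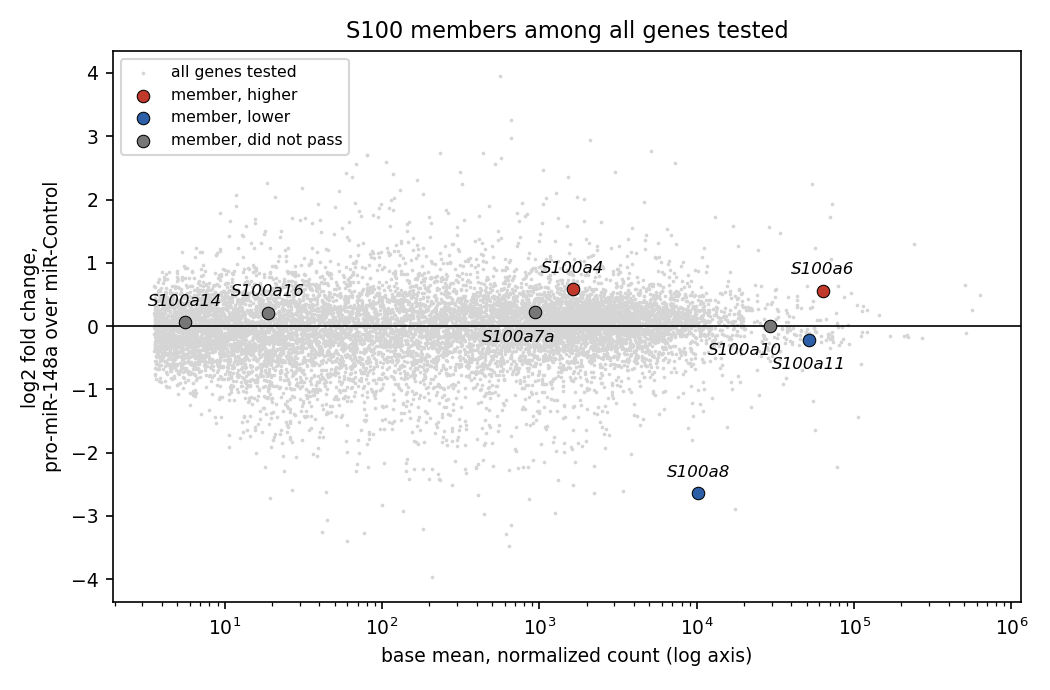
Log2 fold change of pro-miR-148a over miR-Control (vertical axis) against base mean on a log axis, for all 11038 genes tested (grey) and the 8 tested members (coloured by call). S100a6, S100a11 and S100a10 lie at the right end, and S100a8 lies near the lower edge of the cloud at a base mean of 10198.

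Per kilobase of transcript, S100a11 and S100a6 had the highest levels among the 6 members with a base mean of at least 100. The other members, all with 2 or more listed transcripts, were counted too weakly to be placed. S100a11, whose transcript has 511 bases, had a base mean of 100443 per kb and S100a6, with 731 bases, 86372 per kb. They were followed by S100a10 (42543 per kb), S100a8 (20983 per kb), S100a4 (3282 per kb) and S100a7a (735 per kb). In the implied group levels S100a6 stood above S100a11 with pro-miR-148a (102809 and 92928 normalized counts per kb), and below it with miR-Control (69936 and 107959 per kb). Without values per library the spread of a level is not known, so neighbours in this order cannot be tested against each other.

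S100a6 was 17.7 times as high as S100a8 per kb with pro-miR-148a, and 1.93 times as high with miR-Control. S100a8 made up 1.79% of the implied normalized counts of the 6 members with a base mean of at least 100 with pro-miR-148a, and 11.3% with miR-Control. The implied sum of these 6 members was 157599 with pro-miR-148a and 155161 with miR-Control, a ratio of 1.02. The members together held 0.590% of all base means in the table.

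**Figure D4:**
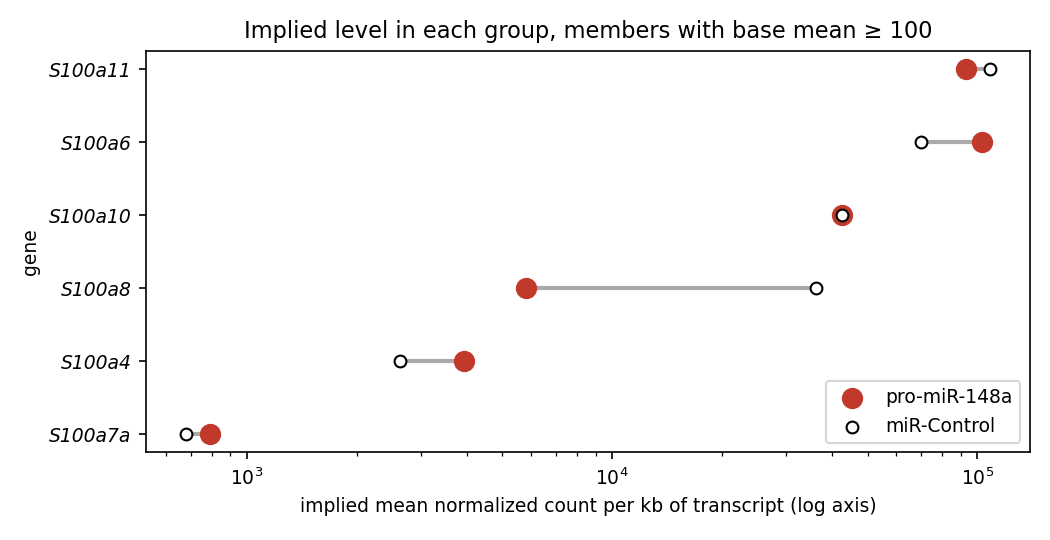
Implied mean normalized count per kb of transcript (log axis) with pro-miR-148a (filled) and miR-Control (open) for the 6 members with a base mean of at least 100, computed from the authors' base mean and fold change; there are no error bars because values per library were not used. S100a8 has the widest gap, 5792 with pro-miR-148a and 36173 with miR-Control, and S100a6 and S100a11 change places.

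The S100 genes lie next to each other on chromosome 3, and genes that rose and fell lay close together. In the order of the RefSeq annotation, 15 S100 genes of the mouse are on chromosome 3 and 3 (S100b, S100g and S100z) are elsewhere. S100a6, which rose, is followed by S100a7a, which did not pass, and then by S100a8, which fell. S100a11 and S100a10 stand apart from the others, after 54 protein-coding genes of the neighbouring epidermal differentiation complex. Of those 54 genes 46 were tested, and 28 fell (60.9%, against 16.8% of all genes tested) and 7 rose, with a median log2 fold change of -0.72. Several of them are close paralogs whose reads could be split between copies.

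**Figure D5:**
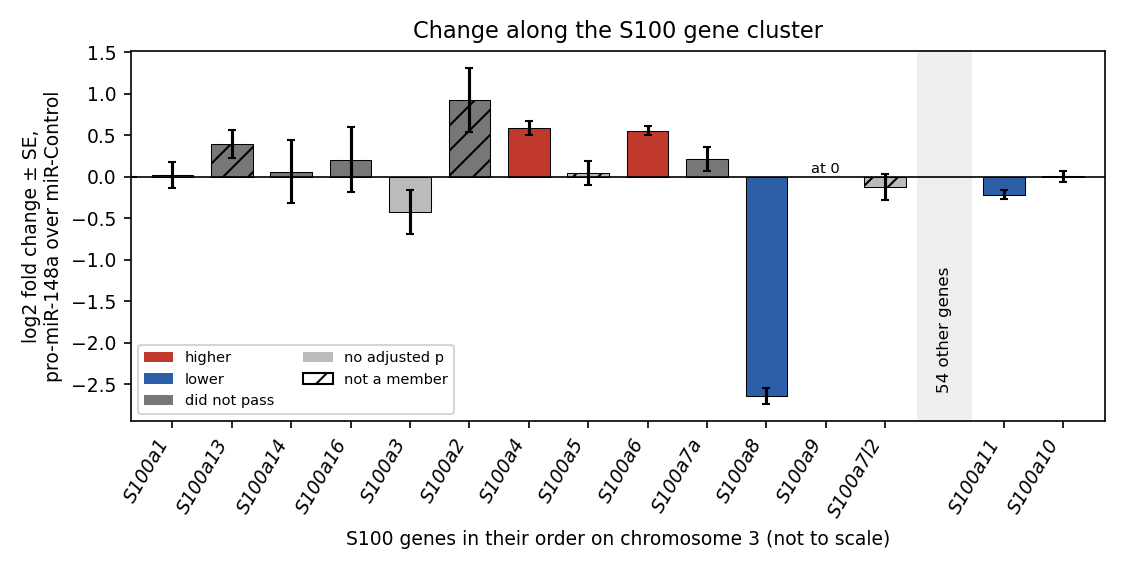
Log2 fold change of pro-miR-148a over miR-Control ± the authors' SE (vertical axis) for the 15 S100 genes of chromosome 3 in their order along it (horizontal axis, not to scale); hatched bars are S100 genes outside the 10 members, and the grey band stands for the 54 genes between the blocks. Higher and lower bars stand side by side, with S100a6 at 0.56 and S100a8 at -2.64 separated by S100a7a.

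The promoters of the 4 members that passed are shown because S100a4 and S100a6 rose by like factors and S100a8 and S100a11 fell. Each has 300 bases, 250 before and 50 after the annotated start (RefSeq, GRCm38.p6, plus strand): S100a4 at chr3:90603520-90603819, S100a6 at chr3:90612644-90612943, S100a8 at chr3:90668821-90669120 and S100a11 at chr3:93520246-93520545. Capitals mark 3 motifs searched on both strands, TGANTCA (the AP-1 motif), TATAAA (the TATA box) and GGGCGG (the GC box), which do not overlap in these windows.
S100a4: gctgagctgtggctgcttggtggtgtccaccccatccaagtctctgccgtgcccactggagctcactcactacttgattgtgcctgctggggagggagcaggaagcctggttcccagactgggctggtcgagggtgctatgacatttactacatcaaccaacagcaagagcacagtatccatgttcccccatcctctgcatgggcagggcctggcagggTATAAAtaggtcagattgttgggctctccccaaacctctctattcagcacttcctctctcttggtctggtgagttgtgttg
S100a6: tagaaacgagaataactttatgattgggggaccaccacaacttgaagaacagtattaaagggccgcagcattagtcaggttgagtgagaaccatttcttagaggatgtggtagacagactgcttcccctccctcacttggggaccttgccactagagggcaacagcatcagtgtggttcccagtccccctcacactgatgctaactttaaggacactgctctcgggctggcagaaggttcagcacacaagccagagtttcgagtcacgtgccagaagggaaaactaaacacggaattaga
S100a8: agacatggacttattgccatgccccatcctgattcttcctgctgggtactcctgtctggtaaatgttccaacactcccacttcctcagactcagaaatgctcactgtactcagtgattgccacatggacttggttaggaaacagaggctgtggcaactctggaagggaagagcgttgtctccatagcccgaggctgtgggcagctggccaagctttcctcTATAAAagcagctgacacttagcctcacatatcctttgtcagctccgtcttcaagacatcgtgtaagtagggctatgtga
S100a11: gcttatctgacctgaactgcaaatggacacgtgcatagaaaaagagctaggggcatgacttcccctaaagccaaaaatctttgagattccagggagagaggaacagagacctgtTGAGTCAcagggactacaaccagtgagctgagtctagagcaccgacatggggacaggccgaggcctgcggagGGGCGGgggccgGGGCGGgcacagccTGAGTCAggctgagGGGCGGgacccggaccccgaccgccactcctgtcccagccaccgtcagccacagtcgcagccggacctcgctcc

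TATAAA was found in S100a4, which rose, and in S100a8, which fell, starting 31 and 30 bases before the annotated start. S100a11 had 2 matches to TGANTCA and 3 to GGGCGG, and the window of S100a6 had no match to any of the 3. In 32851 promoter windows of the same length, 7.81% held TGANTCA, 13.6% TATAAA and 35.7% GGGCGG. The RefSeq table matched 8 of the 10 members, all but S100a10 and S100a14, with 12 windows, of which 2 held TGANTCA, 4 TATAAA and 4 GGGCGG. A match is a run of letters, and none of these motifs was measured for binding here.

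The genes of the proteins that S100 dimers grip went both ways as well. Of 18 binding partners 12 were tested, 5 rose, 1 fell and 6 did not pass, for a median log2 fold change of 0.17. Over all genes tested 16.7% rose and 16.8% fell, with a median of -0.01, and the list was not tested against them. Anxa1, the annexin bound by S100a11, rose 2.47-fold (log2 1.30 ± 0.08 SE, base mean 239951) in the authors' deposited table, while S100a11 fell. Anxa11, another annexin, rose 1.45-fold and Ahnak, a large scaffold held by the S100a10 and annexin A2 complex, rose 1.43-fold in the authors' deposited table. Anxa2, the partner of S100a10 and named after its value was seen, rose 1.18-fold (0.24 ± 0.06 SE). Myh9, the nonmuscle myosin heavy chain that S100a4 binds, in the authors' deposited table fell 1.62-fold (-0.70 ± 0.05 SE, adjusted p = 7.93e-40), while S100a4 rose.

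Receptors for S100 proteins outside the cell were hardly measured. Of 10 such genes 4 were tested, 1 rose and 3 did not pass, against 16.7% higher and 16.8% lower over all genes tested. Tlr4, the toll-like receptor that responds to S100a8 and S100a9, in the authors' deposited table rose 1.40-fold (0.48 ± 0.18 SE, base mean 214, adjusted p = 0.0243). In the authors' deposited table Bsg, the gene of the surface protein basigin, stood at a log2 fold change of -0.02 ± 0.32 SE. The 3 that did not pass had base means of at most 37.9 and have 2 or more listed transcripts each. Ager, the gene of the RAGE receptor, Cd36 and Cd69 were listed at 0. Ager and Cd36 have 2 or more listed transcripts, so, as for S100a9, their 0 need not mean absence. Cd69 has 1.

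S100-fused proteins carry an S100 domain at the start of a long repeat protein of the cornified layer. Of 7 such genes 6 were in the table and tested, 4 rose, 1 fell and 1 did not pass, for a median log2 fold change of 0.27, against 16.7% higher and 16.8% lower over all genes tested. Crnn, the gene of cornulin, rose by 2.93 ± 0.09 SE and Tchhl1, which lies just before S100a11, by 0.84 ± 0.18 SE on the log2 scale in the authors' deposited table. Tchhl1 is also among the 54 genes between the blocks of S100 genes. How many of the other S100-fused genes lie among those 54 was not counted here. The counts of the 2 groups are therefore not separate results. Rptn, the gene of repetin, rose 1.25-fold, and Hrnr, the gene of hornerin, fell 1.97-fold, in the authors' deposited table.

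Of the 8 other S100 genes 6 were tested, 1 fell and 5 did not pass, for a median log2 fold change of -0.16. The share that fell was close to the 16.8% over all genes tested. In the authors' deposited table the gene S100a13 had a log2 fold change of 0.40 ± 0.17 SE (adjusted p = 0.0563) and S100a1, known from heart muscle, one of 0.02 ± 0.15 SE. The one that fell was S100g, a calcium-binding protein known from the intestine, at a base mean of 18.0 (-1.12 ± 0.39 SE, adjusted p = 0.0142), which was named after its value was seen.

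As a check of the labelled cell type, the authors' deposited table has Krt5, the basal keratin, at a base mean of 630448. Krt14, Itga6 and Itgb4, other basal genes with 2 or more listed transcripts each, had base means of 40.3, 6.50 and 4.22 there and were named after these values were seen. Krt5 rose 1.41-fold, Krt1 and Krt10, keratins of differentiating cells, fell 2.49-fold and 1.84-fold, and Dsg3, the gene of a desmosomal cadherin, fell 1.31-fold, in the authors' deposited table. Of the 8 keratinocyte markers 7 were tested, 1 rose, 3 fell and 3 did not pass, and Trp63, with 8 listed transcripts, was at 0. For these and the marker counts that follow, the shares over all genes tested were 16.7% higher and 16.8% lower. Of 5 melanocyte markers 3 were tested and 1 fell, and in the authors' deposited table the pigment genes Pmel and Dct stood at log2 fold changes of -0.04 ± 0.06 SE and -0.11 ± 0.06 SE, at base means of 8101 and 6493. Of 4 Langerhans cell markers 2 were tested and both fell. In the authors' deposited table Epcam fell 2.32-fold (base mean 9266) and Cd1d1 1.95-fold (base mean 50.9). The others have 1 listed transcript each: Cd207 was listed at 0 there, and H2-Aa had a base mean of 0.332. The part of Langerhans cells in the level of Epcam was not tested. Of 4 endothelial markers 2 were tested, and they went opposite ways. In the authors' deposited table Kdr, a receptor of vascular endothelial growth factor, rose 6.65-fold and Vwf fell 1.75-fold, at base means of 438 and 104. Cdh5, with 1 listed transcript, had a base mean of 0.332 there, and Pecam1, with 4, was listed at 0. The part of endothelial cells in the level of Kdr was not tested.

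Among the gene ontology categories of the authors' deposited table, calcium ion binding held 9 changed genes of 55 and calcium-dependent phospholipid binding 1 of 2, both with an adjusted p of 1 for over-representation. How the authors chose the changed genes is not known here.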

How the data were processed

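RNA sequencing compared keratinocytes given pro-miR-148a (3 libraries) or miR-Control (3 libraries), grouped by the treatment label. The deposited files are the authors' table of that comparison and their table of gene ontology categories; neither has a column per library. Per the submitters' processing notes, DESeq2 and the mouse build mm9 were used; no source used here names a version, the aligner, the counter or the annotation. The expression table gives, per the file headers, a base mean (a signal: mean normalized count), a log2 fold change, its SE, a Wald score (log2 fold change over SE), p-values and adjusted p-values. The deposited adjustment matches that of Benjamini and Hochberg over 11757 transcripts to within a relative difference of 0.00885; transcripts with base means under 3.56 have none.

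Signs were turned to read pro-miR-148a over miR-Control. Of 42885 transcripts 42739 were matched to symbols by RefSeq accession (GRCm38.p6), and each gene was taken by its transcript with the highest base mean (11038 genes tested). Because no value per library was used, no differential test was run, and the authors' adjusted p at 0.05 served as the test. Intervals (95%) use the authors' SE. Implied group means assume that the base mean is the mean of 2 equal groups and that the fold change is their ratio; shrinkage of fold changes would bring them together. Sites were searched in the longest 3' UTR of at least 20 bases (GENCODE M21). Coordinates are on GRCm38, not mm9. The members and gene lists were chosen with earlier results of these data known. All 10 members are named; in every other list up to 4 genes past the test with the largest changes are named, or, with fewer than 2, the 2 with the highest base mean; exceptions are stated, apart from markers named because they were listed at or near 0, and Cd68, named for its base mean. Alternatives were other thresholds, filters, a recentring and other transcripts. Code ran in Python 3.11.15 with pandas 2.3.3 and SciPy 1.17.1, and was tested on simulated data. The list of S100-fused genes held 1 gene not analysed here.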

Additional observations from a re-analysis of the deposited data

How the results depend on the processing

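The 4 calls among the members (2 higher, 2 lower) were the count at adjusted p under 0.01 and under 0.1, with no filter on low base means, with a base mean of at least 100, with 1 transcript per gene in the adjustment, and after recentring on the median of 3574 transcripts with a base mean of at least 1000 (0.05, log2). Asking for at least a 2-fold change left 1 call, S100a8. The 10 recomputed fold changes of single members (recentred, or averaged over transcripts) kept their side of the threshold or stayed within 1 SE; after recentring S100a11 stood at -0.26 and S100a6 at 0.51 (log2), and the value of S100a10, which did not pass, was -0.04. The difference of medians that sets the direction was -0.078 (log2) in the main reading, -0.11 for an 8mer against no 8mer, and -0.092 at base means of 100 or more. Leaving out the S100 members, added after seeing the data, gave -0.078, but takes out too few genes to move a median. No paired analysis was possible because the result comes from the authors' table, with no column per library; leaving out single replicates was not run for the same reason. Precision is limited for S100a3, S100a14 and S100a16, which have base means of at most 18.9 and an SE of 0.27 to 0.39, and S100a9 has no value; the depth of the libraries is unknown and the cause of these low values was not tested.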
